A study of Mus musculus with 8 samples.

Results

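The genes examined here encode proteases that cut the extracellular matrix and proteins that control them: the matrix metalloprotease genes Mmp3, Mmp9, Mmp10, Mmp13 and Mmp14, the metalloprotease inhibitor gene Timp1, and the urokinase gene Plau with its receptor gene Plaur. They were picked by name, as 8 of the 45706 gene rows of the count table, and 7 of them had enough counts to be tested. Chromatin-associated RNA, the fraction still attached to or close to the genes it is copied from, was sequenced from primary embryonic fibroblasts of C57BL/6 mice. Knockout cells (KO, labelled crel-/-rela-/-) lack cRel and RelA, subunits of the transcription factor NF-kB, and were set against wild-type cells (WT). Both were kept overnight in low serum and then given the cytokine tumour necrosis factor (TNF) at 10 ng/ml for 15, 45 or 60 min, or taken at 0 min without it. There was 1 library for each genotype and time, 4 KO and 4 WT, so no condition was repeated. No cells were held without TNF for 15, 45 or 60 min, so a change after TNF and a change with time or handling cannot be told apart. The series title asks by what strategies target genes of RelA are regulated in inflammation.

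Matrix metalloproteases are zinc enzymes that are mostly secreted as inactive precursors and cut collagens, proteoglycans and other matrix proteins. Stromelysins such as the Mmp3 and Mmp10 products also activate other precursors, and the Mmp14 product is anchored in the cell membrane, where it activates the gelatinase encoded by Mmp2. TIMP proteins bind and block the active enzymes. Urokinase, made from Plau, turns plasminogen into the broad protease plasmin while held at the cell surface by the Plaur product. Several of these genes are textbook targets of the AP-1 and NF-kB transcription factors in fibroblasts given inflammatory cytokines.

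The libraries held 12359817 to 15607331 counts, with 58.92% to 70.62% of them on Gm26917, Gm42418 and Malat1. All other genes shared 3948194 to 5644974 counts per library. Rela had 241 to 324 counts in KO and 324 to 704 in WT, and Rel had 308 to 633 in KO and 151 to 805 in WT. Which exons were deleted is not stated, so counts over the whole genes do not test the genotype labels. All 8 fibroblast markers were present in every library, with a summed level of 5510 to 7510 CPM (counts scaled to library size) in KO and 6003 to 8579 CPM in WT. Libraries also stood apart in markers of other cells. The summed level of 7 macrophage markers was 6.04 to 8.12 CPM in KO and 49.5 to 68.0 CPM in WT. The KO library at 0 min held 431 CPM of 8 cartilage and bone markers, against 38.7 to 67.5 CPM in the other KO libraries and 24.1 to 32.6 CPM in WT. Col2a1 gave 312 CPM of this. Sox9 (10.6 CPM) lay within the range of the other KO libraries and Runx2 (18.4 CPM) below it. The KO library at 0 min is the only KO baseline, so the KO changes of the protease genes after TNF are given against 15 min as well.

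At 45 and 60 min after TNF, several of these genes stood lower in KO than in WT cells. Mmp9, Plau, Mmp13 and Timp1 were lower in KO at these times (edgeR's quasi-likelihood test with an adjusted p under 0.05 over 15049 genes). Among all genes tested, 7.88% were lower and 3.92% higher. Without the KO library at 0 min, the same genes were called. That library is alone in its group in the fit and has little weight in this comparison, so this is no check on it. Mmp3 passed the filter of 10 counts in 2 libraries only through the late WT libraries, where it is high, so its counts are given below as a description and its test is not used. Mmp9 reached 10 counts in the KO library at 0 min and in both late WT libraries, and so also needed a late WT library to pass. Its calls here and below are thus not independent of the libraries where it is high. Mmp14 and Plaur did not pass the test. The 45 and 60 min libraries of a genotype stood in for replicates here, and nothing says that libraries came from separate cultures. As these are bulk samples, fewer cells that transcribe a gene and less RNA per cell cannot be told apart.

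**Figure D1:**
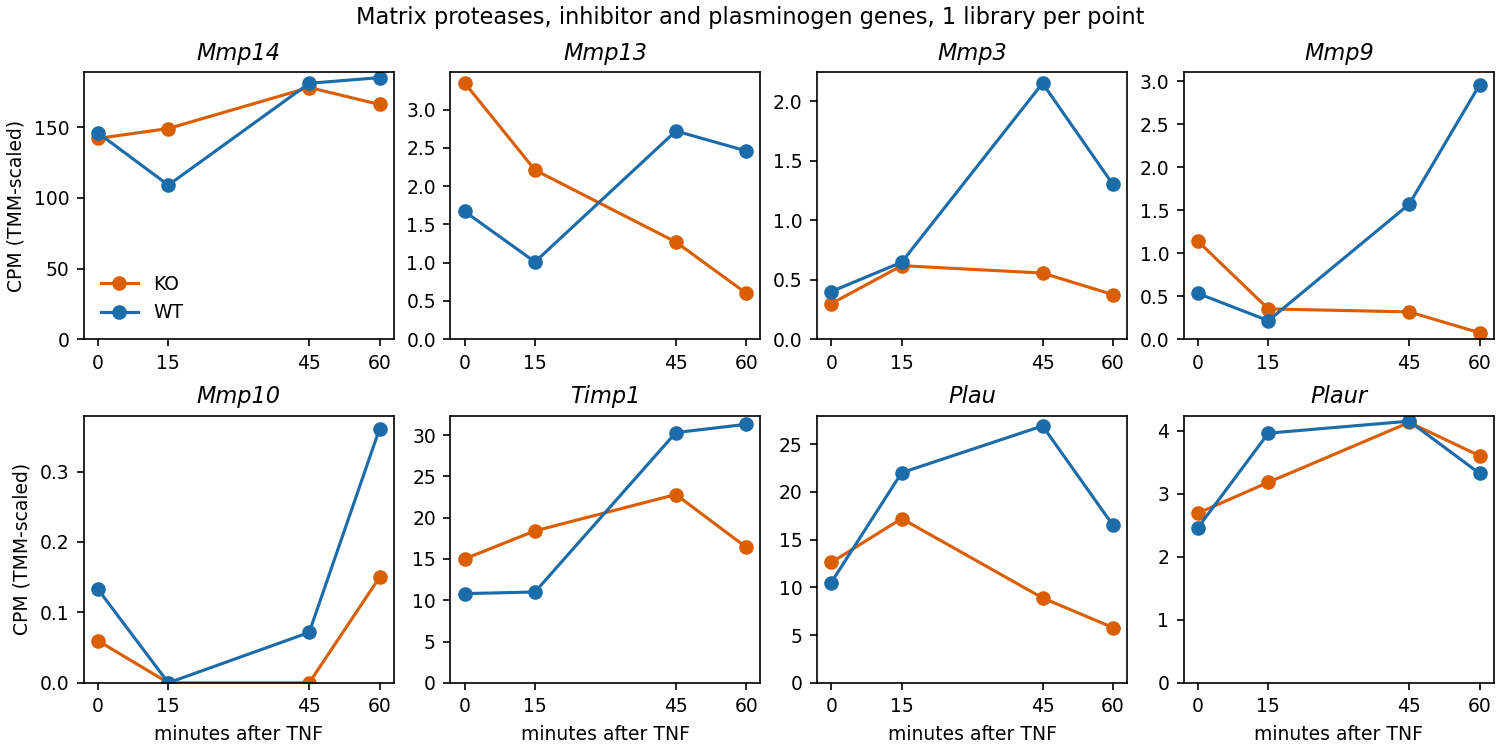
Level of each gene in CPM (counts relative to TMM-scaled library size) against minutes after TNF, with 1 point for each library, KO in orange and WT in blue. At 45 and 60 min the KO points lie below the WT points for Mmp14, Mmp13, Mmp3, Mmp9, Timp1 and Plau, while Plaur overlaps and Mmp10 has at most 5 counts in a library.

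Mmp9 (ENSMUSG00000017737.2, chromosome 2, 164940780 to 164955850, plus strand, mm10) encodes gelatinase B, which cuts denatured collagen and basement membrane collagen. It had 19, 4, 4 and 1 counts in KO at 0, 15, 45 and 60 min, against 8, 3, 22 and 41 counts in WT. The lowest KO library was that at 60 min, with 1 count, where WT was highest, while the KO libraries at 15 and 45 min had 4 counts each. Both late KO libraries lay below both late WT libraries. Summed over 45 and 60 min there were 5 counts in KO and 63 in WT, a log2 ratio of -3.55 with an exact 95% interval of -5.23 to -2.26 that covers counting error only. Mmp9 needed a late WT library to pass the filter, so its test is not independent of the libraries where it is high. In the fit the late level was lower in KO by a log2 fold change of -3.49 ± 0.63 (SE), with an edgeR adjusted p of 0.00267. It was -4.76 without the KO library at 45 min and -2.80 without the KO library at 60 min, and the call held in all 13 alternatives run. Those that leave out a 0 or 15 min library hardly touch this comparison, so they are no check on it.

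Mmp3 (ENSMUSG00000043613.7, chromosome 9, 7445822 to 7455972, plus strand) encodes stromelysin 1, which cuts proteoglycans and activates other metalloproteases. Its counts were 5, 7, 7 and 5 in KO at 0, 15, 45 and 60 min, against 6, 9, 30 and 18 in WT. All 4 KO libraries and the WT libraries up to 15 min were at 9 counts or fewer, and only the late WT libraries were higher. Summed over 45 and 60 min there were 12 counts in KO and 48 in WT, a log2 ratio of -1.90 with an exact 95% interval of -2.95 to -0.96 for counting error only. Those late WT libraries are also the ones through which Mmp3 passed the filter, so this is a description with no test.

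Mmp13 (ENSMUSG00000050578.9, chromosome 9, 7272514 to 7283333, plus strand) encodes collagenase 3, the main interstitial collagenase of rodents. There were 56, 25, 16 and 8 counts in KO at 0, 15, 45 and 60 min, and 25, 14, 38 and 34 in WT. KO was the higher genotype at 0 and 15 min and the lower one at 45 and 60 min, so the genotypes overlap over all times. The late level was lower in KO by a log2 fold change of -1.47 ± 0.40 (edgeR adjusted p = 0.0287). It was -2.09 without the KO library at 45 min, and the call was lost without the KO library at 60 min (-1.02, edgeR adjusted p = 0.216) or the WT library at 45 min (-1.39, edgeR adjusted p = 0.0661).

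Mmp14 (ENSMUSG00000000957.9, chromosome 14, 54431612 to 54441265, plus strand) was the most deeply counted of these genes. Its counts were 2378, 1692, 2238 and 2218 in KO at 0, 15, 45 and 60 min, against 2190, 1518, 2523 and 2559 in WT. Scaled, these were 142, 149, 178 and 166 CPM in KO and 146, 109, 181 and 185 CPM in WT. Levels were close in the genotypes except at 15 min, where the WT library was the lowest of all 8. The late log2 fold change of -0.09 ± 0.13 did not pass (edgeR adjusted p = 0.754). Mmp10 (ENSMUSG00000047562.2, chromosome 9, 7502352 to 7510238, plus strand), which encodes stromelysin 2, had 1, 0, 0 and 2 counts in KO and 2, 0, 1 and 5 in WT at the same times. It did not pass the filter, and 2 late counts in KO against 6 in WT gave a log2 ratio of -1.48 with an exact 95% interval of -4.82 to 1.00. A difference in Mmp10 was not detectable at this depth, where the 3 counts that a listed 0 still allows correspond to 0.192 to 0.243 CPM of a library's total.

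RefSeq promoter entries (GRCm38.p6, the patch series of mm10) were found for 6 of the 8 genes: Mmp3, Mmp10, Mmp13, Mmp14, Timp1 and Plaur. The 250 bases before the start are shown for the stromelysin and collagenase genes and for Plaur, which share an AP-1 motif, and for Timp1, which has none and is the gene that passed the test after TNF in WT. Capitals mark the AP-1 motif TGANTCA and the TATA box letters TATAAA, each searched on both strands.
Mmp3 (chr9:7445572-7445821, + strand): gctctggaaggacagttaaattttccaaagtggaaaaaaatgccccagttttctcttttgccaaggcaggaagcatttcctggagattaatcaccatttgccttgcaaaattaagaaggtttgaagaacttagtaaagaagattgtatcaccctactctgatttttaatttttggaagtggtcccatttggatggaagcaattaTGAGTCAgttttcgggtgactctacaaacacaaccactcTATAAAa
Mmp10 (chr9:7502092-7502341, + strand): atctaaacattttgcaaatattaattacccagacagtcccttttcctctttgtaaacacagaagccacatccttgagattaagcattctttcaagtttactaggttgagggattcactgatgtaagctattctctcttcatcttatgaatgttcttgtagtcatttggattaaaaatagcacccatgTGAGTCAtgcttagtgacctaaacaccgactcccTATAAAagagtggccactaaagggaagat
Mmp13 (chr9:7272264-7272513, + strand): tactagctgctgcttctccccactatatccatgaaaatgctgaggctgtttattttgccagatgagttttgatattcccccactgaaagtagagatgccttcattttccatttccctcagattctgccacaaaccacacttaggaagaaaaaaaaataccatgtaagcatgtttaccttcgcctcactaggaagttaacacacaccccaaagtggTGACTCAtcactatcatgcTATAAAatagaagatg
Plaur (chr7:24462233-24462482, + strand): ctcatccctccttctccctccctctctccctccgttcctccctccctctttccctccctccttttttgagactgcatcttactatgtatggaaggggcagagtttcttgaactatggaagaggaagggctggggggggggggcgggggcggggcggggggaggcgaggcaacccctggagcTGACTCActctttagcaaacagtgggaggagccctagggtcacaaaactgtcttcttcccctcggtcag
Timp1 (chrX:20869916-20870165, + strand): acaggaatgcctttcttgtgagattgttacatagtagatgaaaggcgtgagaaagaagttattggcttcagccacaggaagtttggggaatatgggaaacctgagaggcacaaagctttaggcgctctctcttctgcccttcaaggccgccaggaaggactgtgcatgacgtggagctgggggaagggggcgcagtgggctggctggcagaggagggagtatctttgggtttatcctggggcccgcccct
The AP-1 motif lay 46 to 40 bases before the start in Mmp3, 63 to 57 in Mmp10, 35 to 29 in Mmp13 and 69 to 63 in Plaur. Mmp3 and Mmp10 held it as TGAGTCA, and Mmp13 and Plaur as TGACTCA. The TATA letters lay 7 to 2 bases before the annotated start in Mmp3, 29 to 24 in Mmp10 and 16 to 11 in Mmp13. Of 32851 windows of the same length, 6.75% held TGANTCA and 12.4% held TATAAA. The NF-kB consensus was in 3.90% of windows and in none of these 6, which says only that its letters are not in these 250 bases. The motifs do not overlap each other in these windows. Mmp13, with an AP-1 match, was lower in KO late, Plaur, also with a match, did not pass, and Timp1, without one, was lower in KO. Mmp9 and Plau had no promoter entry, and a link between the motif and the genotype difference was not tested.

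Timp1 (ENSMUSG00000001131.9, chromosome X, 20870166 to 20874735, plus strand) encodes a secreted inhibitor of most metalloproteases. Its counts were 251, 208, 287 and 219 in KO at 0, 15, 45 and 60 min, against 162, 153, 423 and 434 in WT. Scaled, these were 15.0, 18.4, 22.8 and 16.4 CPM in KO and 10.8, 11.0, 30.3 and 31.3 CPM in WT. The 4 KO libraries fell between the early and the late WT libraries, above the WT level at 0 and 15 min and below it at 45 and 60 min. The late level was lower in KO by a log2 fold change of -0.65 ± 0.18 (edgeR adjusted p = 0.0284). This call was lost without the KO library at 60 min (-0.43, edgeR adjusted p = 0.193) or the WT library at 60 min (-0.63, edgeR adjusted p = 0.0533). Timp1 lies inside the span of Syn1 on the opposite strand, which had 6 to 14 counts in a library.

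Plau (ENSMUSG00000021822.2, chromosome 14, 20836662 to 20843388, plus strand) had 210, 195, 112 and 77 counts in KO at 0, 15, 45 and 60 min, against 157, 306, 376 and 229 in WT. Scaled, it stood at 12.6, 17.2, 8.89 and 5.78 CPM in KO and at 10.5, 22.0, 26.9 and 16.5 CPM in WT. The late KO libraries were the lowest of all 8, and the WT libraries at 15 and 45 min were the highest. The late log2 fold change was -1.57 ± 0.26 (edgeR adjusted p = 0.00138), and the call held in all 13 alternatives. As for Mmp9, those that leave out a 0 or 15 min library are no check on it. Plaur (ENSMUSG00000046223.9, chromosome 7, 24462500 to 24475873, plus strand) had 45, 36, 52 and 48 counts in KO and 37, 55, 58 and 46 in WT. Its 2.69, 3.18, 4.13 and 3.60 CPM in KO overlapped the 2.46, 3.96, 4.15 and 3.32 CPM in WT. The late log2 fold change of Plaur was 0.05 ± 0.26 (edgeR adjusted p = 0.941), so the protease and its receptor did not share a call. Whether the Plau and Plaur differences differ from each other was not tested.

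These calls rest on low counts and on the choice of test to unequal degrees. With DESeq2, Mmp9 (-3.55, DESeq2 adjusted p = 0.0306) and Plau (-1.57, DESeq2 adjusted p = 0.000157) were called, and Mmp13 (-1.48, 0.326) and Timp1 (-0.66, 0.155) were not. Both late KO libraries lay below both late WT libraries for 6 of the 7 genes tested, the exception being Plaur, and for 26.6% of all genes tested. These 6 include Mmp3 and Mmp9, which needed late WT libraries to pass the filter. They also include Mmp14, which at 45 min stood at 178 CPM in KO and 181 CPM in WT, so the count is a description. For scale, the NF-kB target genes Nfkbia, Tnfaip3 and Icam1 were lower in KO late by log2 fold changes of -4.14 ± 0.19, -6.62 ± 0.28 and -4.24 ± 0.18. The Mmp9 value was thus of a size near to 2 of these, while those of Plau, Mmp13 and Timp1 were smaller.

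**Figure D2:**
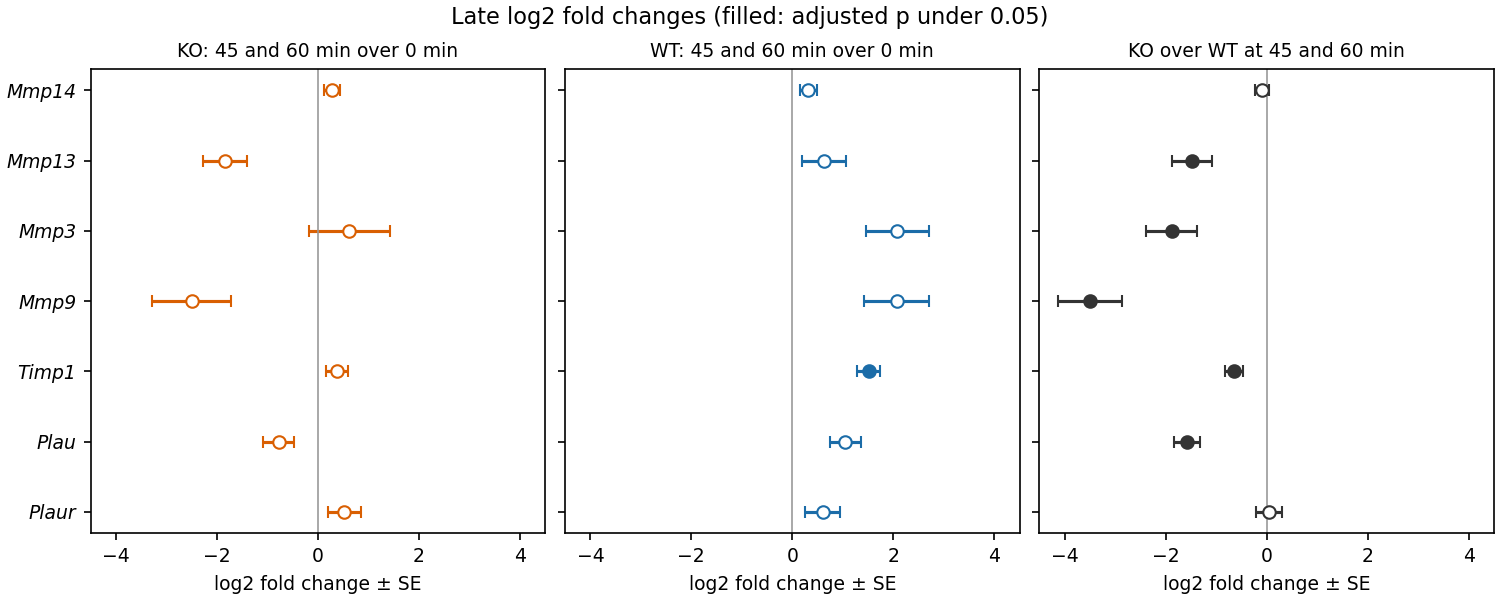
Log2 fold change with its standard error for the 7 genes tested: KO at 45 and 60 min over 0 min (left), WT at 45 and 60 min over 0 min (middle) and KO over WT at 45 and 60 min (right). Filled points passed the edgeR test, which Timp1 did in WT and Mmp13, Mmp9, Timp1 and Plau did between genotypes. Mmp3, also filled there, passed the filter on low counts only through the late WT libraries and is a description. Mmp9 also needed a late WT library to pass that filter.

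After TNF, the fitted changes of these genes are given for each genotype, and the direct test of their difference, further below, called none of the 7. In KO, 4 were above 0 and 3 below it. In WT all 7 were above 0, from Mmp14 (0.32 ± 0.16) to Mmp3 (2.08 ± 0.63), which passed the filter only through the late WT libraries. The median of all genes was -0.00 in WT, and Mmp9 also needed a late WT library to pass. In KO, none of the 7 was called in the edgeR test, where 1.32% of all genes were higher and 0.518% lower, and DESeq2 called none. The 3 below 0 in KO were Mmp9 (-2.50 ± 0.78, edgeR adjusted p = 0.122), Mmp13 (-1.84 ± 0.43, edgeR adjusted p = 0.0524) and Plau (-0.78 ± 0.31, edgeR adjusted p = 0.213). Set against 15 min in place of 0 min, they were -0.84, -1.24 and -1.23 in KO, and none was called. The other KO values against 15 min were -0.41 for Mmp3, 0.20 for Mmp14, 0.09 for Timp1 and 0.28 for Plaur, against 0.62, 0.28, 0.38 and 0.52 when set against 0 min. Leaving out the WT library at 45 or 60 min moved some of these KO values across the threshold. Those libraries enter the KO test only through the shared spread, so this is no support.

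In WT, Timp1 was the gene of the 7 that passed the test, where 4.17% of all genes were higher and 1.31% lower. It rose by a log2 fold change of 1.51 ± 0.23 (edgeR adjusted p = 0.00231) and was called in all 13 alternatives, at 1.30 to 1.52. Those that leave out a KO library or the WT library at 15 min hardly touch the WT change, so they are no check on it. Mmp9 (2.07 ± 0.64, edgeR adjusted p = 0.0860) and Plau (1.05 ± 0.31, edgeR adjusted p = 0.0696) had larger errors and did not pass. Each became a call when a late library was left out. The spread then came only from the late pair of the genotype left whole, so these calls are no support. Mmp9 was at 2.44 without the WT library at 45 min. Plau was at 1.35 without the WT library at 60 min, and unmoved at 1.05 without the KO library at 45 or 60 min. Against 15 min, Timp1 was at 1.48, Mmp9 at 3.34 and Mmp14 at 0.74, all called, while Plau was at -0.02.

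The difference between the genotypes' changes, the KO change minus the WT change, was below 0 for all 7 genes, where the median of all genes was -0.00. Mmp14 (-0.05 ± 0.23) and Plaur (-0.08 ± 0.47) lay within their SE of 0, and Mmp3 and Mmp9 needed late WT libraries to pass the filter. None of the 7 passed the edgeR test, in which 0.492% of all genes were lower and 0.00664% higher, and DESeq2 called none. Values not called include those of Mmp9 (-4.57 ± 1.01, edgeR adjusted p = 0.0795), Plau (-1.83 ± 0.43, edgeR adjusted p = 0.114), Mmp13 (-2.47 ± 0.62, edgeR adjusted p = 0.141) and Timp1 (-1.13 ± 0.31, edgeR adjusted p = 0.224). Without the WT library at 60 min, Mmp9 was at -4.05, Mmp13 at -2.54 and Plau at -2.14, and without the WT library at 45 min Mmp9 was at -4.93. These values crossed the threshold, but with the spread taken from the late KO pair alone, so they are no support. Against 15 min, which sets aside the KO library at 0 min, these were -4.18 for Mmp9, -2.59 for Mmp13, -1.21 for Plau and -1.39 for Timp1, with no call. The late difference and the KO and WT changes share libraries, so their values are not independent of each other.

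Single libraries show when each gene moved, with exact 95% intervals for counting error only and no test. In KO, Plau at 15 min was 1.37-fold its level at 0 min, a log2 ratio of 0.45 (0.17 to 0.74), and at 60 min 0.460-fold, a log2 ratio of -1.12 (-1.52 to -0.74). In WT, Plau was already 2.10-fold at 15 min, a log2 ratio of 1.07 (0.79 to 1.36), highest at 45 min, and lower again at 60 min than at 45 min by -0.70 (-0.95 to -0.46). Plaur at 15 min had a log2 ratio of 0.24 (-0.43 to 0.90) in KO and of 0.68 (0.06 to 1.32) in WT, and Timp1 at 15 min one of 0.29 (0.02 to 0.56) in KO. Timp1 in WT had a log2 ratio of 0.03 (-0.30 to 0.36) at 15 min and of 1.49 (1.22 to 1.76) at 45 min, and did not differ between 45 and 60 min beyond counting error. Mmp9 in WT was higher at 60 than at 45 min by a log2 ratio of 0.91 (0.13 to 1.73). Mmp14 in WT was lower at 15 than at 0 min by -0.42 (-0.51 to -0.32), which KO did not show, with 0.07 (-0.02 to 0.16). Scaling by total counts in place of TMM moved several of these early ratios: Plau at 15 min was then 0.11 in KO and 0.74 in WT, Timp1 at 15 min turned to -0.05 in KO, and Mmp14 at 15 min was -0.27 in KO and -0.76 in WT.

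For Mmp13 and Timp1, the order of the genotypes at 0 and 15 min was not the late one. KO over WT, Mmp13 was 2.01-fold at 0 min, a log2 ratio of 1.01 (0.30 to 1.75), and 2.19-fold at 15 min, 1.13 (0.13 to 2.19). Timp1 was 1.39-fold at 0 min, 0.48 (0.18 to 0.77), and 1.67-fold at 15 min, 0.74 (0.43 to 1.05). At 60 min the ratio was 0.244-fold for Mmp13, -2.03 (-3.35 to -0.89), and 0.524-fold for Timp1, -0.93 (-1.17 to -0.69). Both genes thus crossed over between 15 and 45 min. For Plau the log2 ratio was 0.26 (-0.04 to 0.57) at 0 min, an interval that includes 0, -0.36 (-0.62 to -0.09) at 15 min and -1.60 (-1.91 to -1.29) at 45 min.

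KO against WT over all 4 times, with time as a block, called none of the 7 genes in the edgeR test, where 9.44% of all genes were lower in KO and 6.81% higher. DESeq2 called none. Plau stood at -0.77 ± 0.26 (edgeR adjusted p = 0.0763). Mmp3 passed the filter only through WT libraries, so its test is not used. Without the KO library at 0 min, Mmp9 (-2.60, edgeR adjusted p = 0.0278) and Plau (-1.12, edgeR adjusted p = 0.00563) were called. Leaving out the WT library at 0 min instead gave -2.61 and -1.12. Either way the 0 min library that remains is alone in its time block and holds no information on genotype. This is thus in effect the same analysis and no separate support. Mmp14 (0.06 ± 0.10), Plaur (-0.02 ± 0.17), Timp1 (-0.07 ± 0.23) and Mmp13 (-0.11 ± 0.45) were near 0 over all times.

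Cell types that are known to make some of these proteins differed between the libraries. Macrophages make Mmp9, Mmp12, urokinase and its receptor, and 6 of the 7 macrophage markers had at most 13 counts in any KO library and at least 22 in every WT library, the exception being Cd68. Between 1 and 3 of these markers were at 0 counts in each KO library and none was in any WT library. In WT the summed macrophage level was 68.0, 65.6, 53.5 and 49.5 CPM at 0, 15, 45 and 60 min. Hypertrophic cartilage and bone cells make Mmp13 and Mmp9, and Ibsp, a bone matrix gene, had 338 counts in KO at 0 min and 0 in the other 7 libraries. At 15 min the cartilage and bone sum was 38.7 CPM in KO and 30.7 CPM in WT, and Mmp13 stood at 2.21 CPM in KO and 1.01 CPM in WT. The largest part of both sums was Runx2, at 20.6 CPM in KO and 24.0 CPM in WT. Within the sums, Col2a1 was at 8.03 CPM in KO and 1.01 CPM in WT, Acan at 0.882 and 0.216, and Sox9 at 8.56 and 5.47. Osteoclasts make Mmp9, and of their 4 markers Calcr and Ocstamp were at 0 in every library. The sum of the 4, 7.13 to 9.97 CPM in KO and 10.4 to 17.3 CPM in WT, was nearly all Ctsk, as Acp5 reached at most 0.787 CPM in a library. The part of these cells in the genotype differences was not tested.

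**Figure D3:**
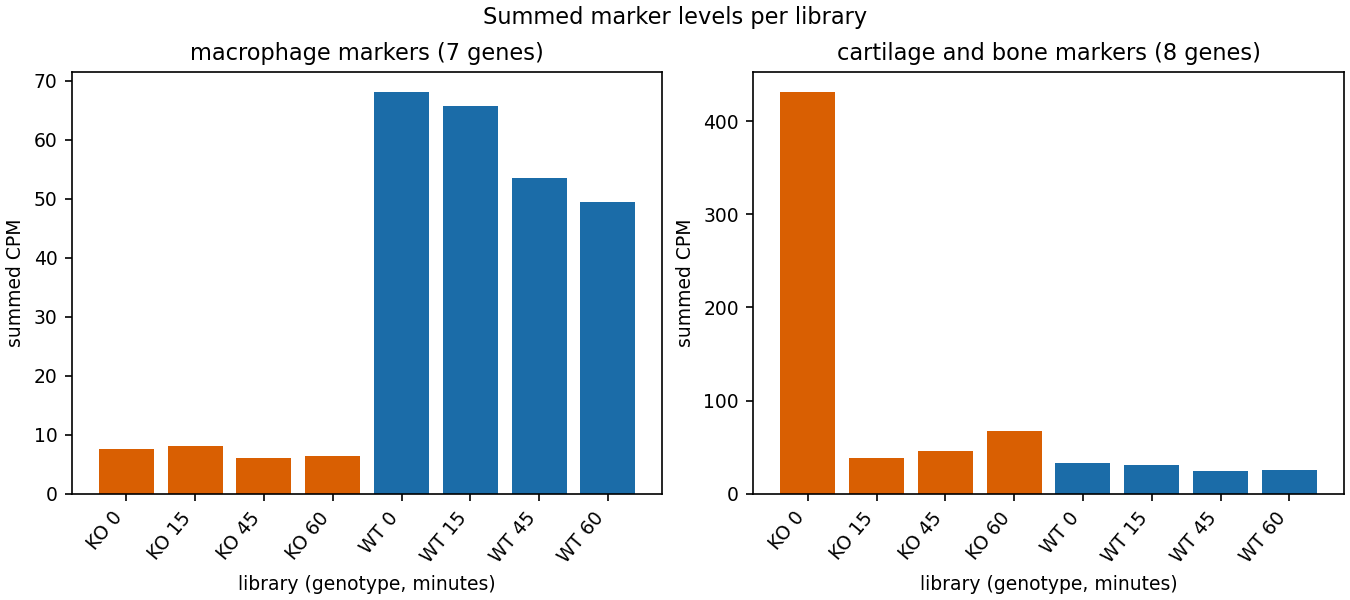
Summed CPM of 7 macrophage markers (left) and 8 cartilage and bone markers (right) in each library, KO in orange and WT in blue, with minutes after TNF. Macrophage markers reach at most 8.12 CPM in KO and at least 49.5 CPM in WT, and the KO library at 0 min stands at 431 CPM of cartilage and bone markers.

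Between genes, levels can be compared per exon length, as CPM per kb. Mmp14 was the highest of these genes, at 33.1 to 41.3 CPM per kb in KO and 25.4 to 43.0 in WT, and its range over all libraries overlapped that of Timp1, at 16.9 to 25.7 in KO and 12.2 to 35.3 in WT. Plau followed at 2.47 to 7.34 in KO and 4.46 to 11.5 in WT, and overlapped Plaur, at 1.93 to 2.96 in KO and 1.77 to 2.97 in WT. Below them stood Mmp13 at 0.224 to 1.25 in KO and 0.376 to 1.02 in WT, Mmp3 at 0.166 to 0.343 in KO and 0.222 to 1.19 in WT, and Mmp9 at 0.0212 to 0.321 in KO and 0.0610 to 0.837 in WT, with ranges that overlap. Mmp10 was lowest, at 0 to 0.0872 in KO and 0 to 0.210 in WT. The membrane protease gene Mmp14 (median 36.7 CPM per kb over the 8 libraries), near the level of Mmp2 (40.0), was not called. Timp1 (median 19.6) stood below Timp2 (29.1) and Timp3 (24.8), and Plau (6.21) was close to Plat (5.76), the gene of the other plasminogen activator.

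**Figure D4:**
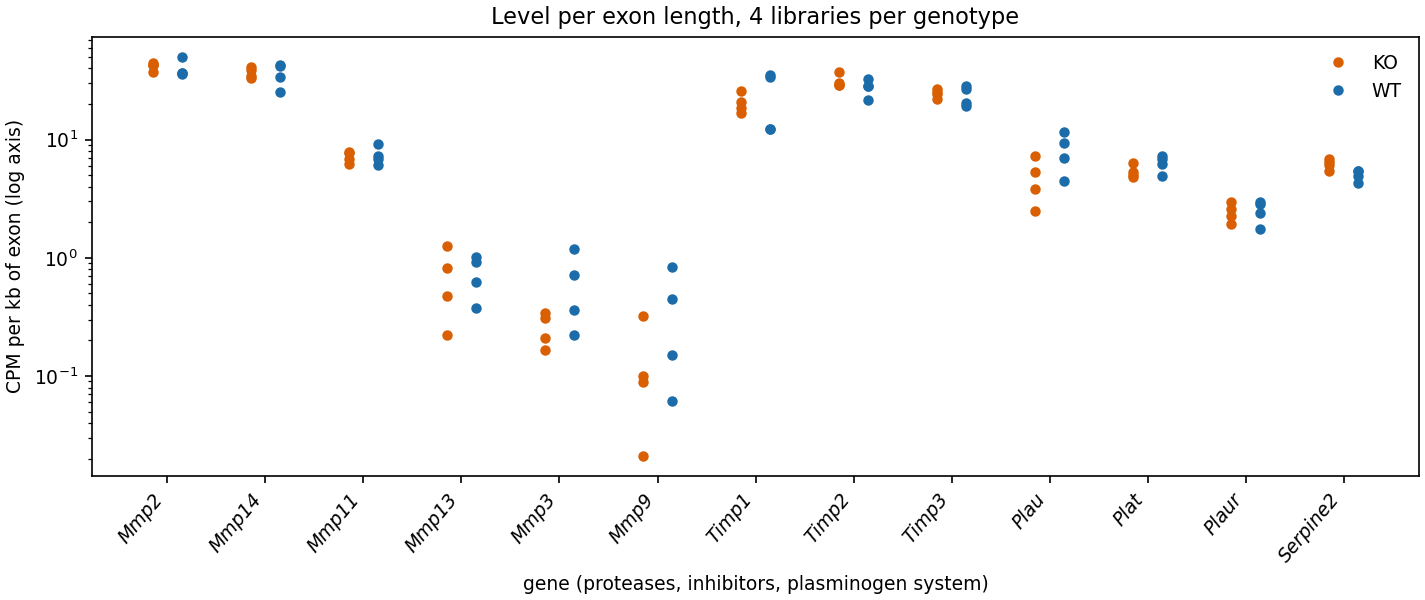
Level per exon length (CPM per kb, log axis) of proteases, inhibitors and plasminogen system genes, with 1 point for each of 4 KO libraries (orange) and 4 WT libraries (blue). Mmp2, Mmp14, Timp1, Timp2 and Timp3 lie above 10 CPM per kb in every library, while Mmp13, Mmp3 and Mmp9 stay at or below 1.25.

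Mmp3, Mmp10 and Mmp13 belong to a cluster of 10 metalloprotease genes on chromosome 9 that ends beside Birc2 and Birc3, which encode inhibitors of apoptosis, within 7272514 to 7873186 (mm10). Of its 17 annotated genes 7 passed the filter, of which Mmp13, Tmem123, Birc2 and Birc3 were lower in KO at 45 and 60 min, where 7.88% of all genes were. Mmp1b and Mmp3 passed the filter only through the late WT libraries and Mmp12 only through WT libraries, so these 3 are described by their counts. Birc3 had 145, 99, 90 and 77 counts in KO at 0, 15, 45 and 60 min, against 167, 225, 1199 and 960 in WT, a late log2 fold change of -3.59 ± 0.19 (edgeR adjusted p = 1.28e-07). Birc2 had 404, 247, 260 and 281 counts in KO, against 347, 414, 949 and 1053 in WT, a late log2 fold change of -1.79 ± 0.15. These are the deeply counted genes at the end of the cluster, and both were higher in late than in 0 min WT libraries, by 2.80 ± 0.23 for Birc3 and 1.64 ± 0.19 for Birc2.

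Between the proteases and Birc2 lies Tmem123, a membrane protein gene, with 197, 138, 61 and 54 counts in KO and 156, 174, 183 and 153 in WT. It was lower in KO late (-1.44 ± 0.20), and in KO it fell after TNF (-1.40 ± 0.24, edgeR adjusted p = 0.0134). Mmp1b, a collagenase-like gene of rodents, had 2, 2, 2 and 0 counts in KO and 0, 1, 12 and 11 in WT. It passed the filter only through the late WT libraries, so its values are a description, and no fold is given because of the counts at 0. Mmp12, the macrophage elastase gene, had 5, 1, 1 and 2 counts in KO and 11, 17, 12 and 4 in WT. It reached 10 counts in WT libraries alone, so its lower level in KO is a description. Mmp1b and Mmp12 overlap on opposite strands, and how reads were assigned by strand or between near-identical family members is not stated, so both are uncertain. The rows Mmp1a, Mmp7, Mmp8, Mmp20, Mmp27, AV064505 and Gm10709 of the cluster had at most 1 count in any library. Slc7a7, an amino acid transporter gene 13832 bp from Mmp14 and named here after its values were seen, had 23, 17, 11 and 23 counts in KO and 31, 31, 109 and 142 in WT. It was lower in KO late (-2.78 ± 0.33, edgeR adjusted p = 0.000133), while Mmp14 beside it was not called.

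**Figure D5:**
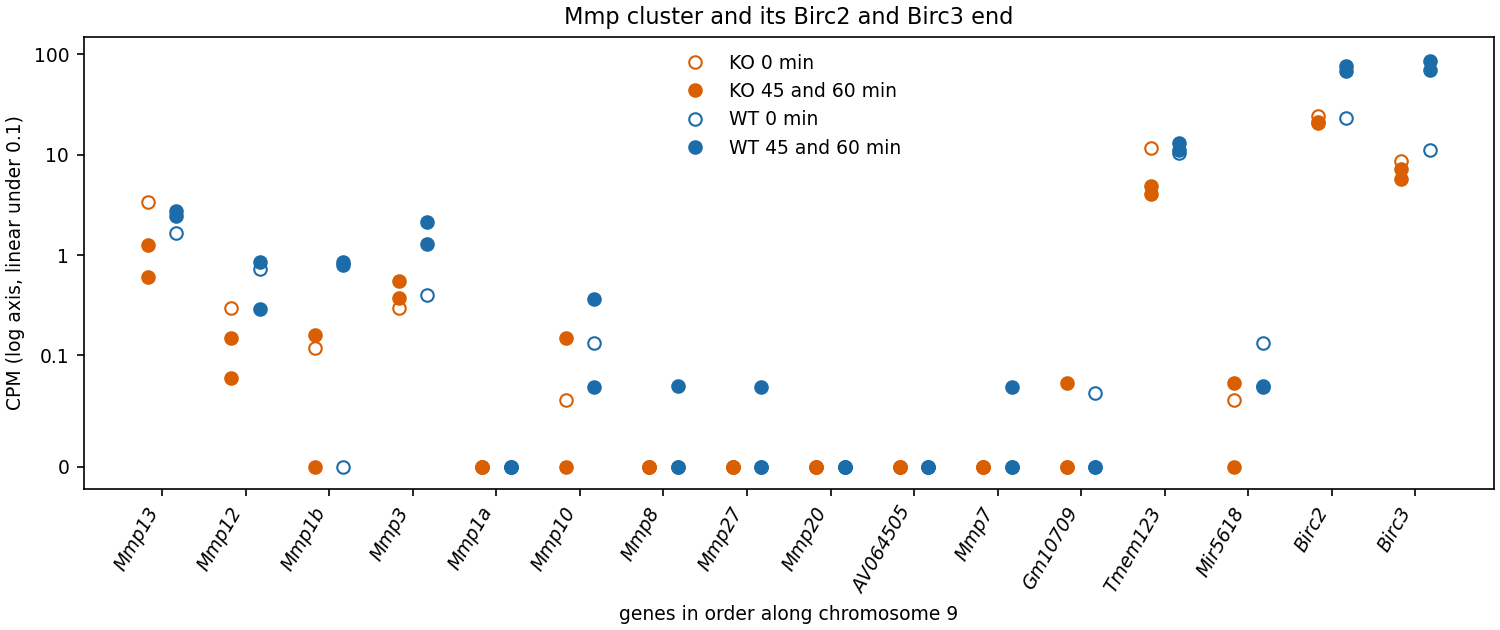
Level in CPM (log axis, linear under 0.1) of the 16 genes of the chromosome 9 cluster that have a symbol, in their order along the chromosome, for KO (orange) and WT (blue) at 0 min (open) and at 45 and 60 min (filled). Late WT points lie above late KO points for Mmp13, Mmp12, Mmp1b, Mmp3, Tmem123, Birc2 and Birc3, and most genes between Mmp10 and Tmem123 are at or near 0.

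Other genes of matrix proteolysis were described by lists, in which each KO change rests on the KO library at 0 min. Of 18 other metalloprotease genes 10 could be tested: after TNF none was called in KO, and in WT Mmp19 fell (-0.94 ± 0.22, edgeR adjusted p = 0.0249), where 1.31% of all genes did. Between genotypes late, none was called apart from Mmp1b, whose counts are given above. Mmp2, whose gelatinase precursor is activated by the Mmp14 product, had 2163, 1472, 1715 and 1518 counts in KO and 2292, 1548, 1523 and 1531 in WT and was not called.

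Of 5 other metalloprotease inhibitor genes tested, A2m rose after TNF in WT (1.87 ± 0.48, edgeR adjusted p = 0.0416), where 4.17% of all genes did, and none was called in KO. A2m, which encodes a protease-trapping macroglobulin, had 52, 20, 10 and 15 counts in KO at 0, 15, 45 and 60 min, against 12, 12, 34 and 48 in WT. It was high where Mmp13 and Mmp9 were high, at 0 min in KO and late in WT. Its change after TNF differed between genotypes (-3.55 ± 0.64, edgeR adjusted p = 0.0308) and its late level was lower in KO (-1.61 ± 0.38). Tfpi2, an inhibitor of plasmin and other proteases, had 2, 0, 3 and 5 counts in KO and 1, 1, 17 and 13 in WT, and passed the filter only through the late WT libraries, so these counts are a description. Timp2 and Timp3 were called in none of the comparisons.

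Of 10 plasminogen system partners tested, none was called after TNF in KO and 1 rose in WT, the integrin gene Itgav (1.27 ± 0.26, edgeR adjusted p = 0.0129), where 4.17% of all genes rose. Itgav had 1911, 1633, 2770 and 1902 counts in KO at 0, 15, 45 and 60 min, against 1536, 1587, 3935 and 2916 in WT. Late, 2 of the 10 were lower in KO, where 7.88% of all genes were: the plasminogen receptor genes Plgrkt (-0.76 ± 0.20) and S100a10 (-0.58 ± 0.17).

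Of 22 ADAM and ADAMTS protease genes, none was called after TNF in KO. In WT, where 1.31% of all genes fell, 2 did, the aggrecanase genes Adamts5 (-1.41 ± 0.20) and Adamts1 (-0.97 ± 0.21). Both were also below 0 in KO (-0.76 ± 0.21 and -0.54 ± 0.21). The difference between the genotypes' changes was called for neither (edgeR adjusted p = 0.651 and 0.872). Adamts1 stood at 194, 336, 153 and 114 CPM in KO at 0, 15, 45 and 60 min, and at 168, 236, 97.7 and 74.2 CPM in WT, highest at 15 min in both. Late, 3 were higher and 5 lower in KO, where 3.92% of all genes were higher and 7.88% lower, led by the procollagen protease gene Adamts3 (2.58 ± 0.27), Adam8 (-1.29 ± 0.17), Adamts15 (-1.81 ± 0.24) and Adam17 (-1.11 ± 0.17), whose product releases TNF from the cell surface. Of 7 cathepsin and cystatin genes none was called late apart from Ctss, known from macrophages, which passed the filter only through WT libraries. Ctss had 2, 1, 1 and 0 counts in KO at 0, 15, 45 and 60 min, against 43, 28, 42 and 37 in WT. Of 14 matrix substrate genes, 1 rose in KO and 3 in WT, where 1.32% and 4.17% of all genes did. Cd44, the hyaluronan receptor gene, rose in both, by 1.39 ± 0.21 in KO and 2.20 ± 0.22 in WT, and was lower in KO late (-1.21 ± 0.16).

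Genes of the AP-1 and ETS families, whose products bind metalloprotease promoters, were all 11 tested. After TNF, 2 rose and 1 fell in KO, where 1.32% of all genes rose and 0.518% fell, and 5 rose and 1 fell in WT, where 4.17% rose and 1.31% fell. Junb had 428, 749, 478 and 264 counts in KO at 0, 15, 45 and 60 min, against 291, 1002, 974 and 777 in WT, and was lower in KO late (-1.13 ± 0.24, edgeR adjusted p = 0.00753). Ets1 rose by 1.05 ± 0.19 in KO and by 1.98 ± 0.20 in WT. Fos stood at 17.9, 76.4, 9.85 and 4.80 CPM in KO and at 14.5, 32.2, 5.23 and 4.41 CPM in WT, highest at 15 min in both, and its late level fell by 1.30 on the log2 scale in KO and by 1.59 in WT. Late, 3 of the 11 were higher in KO and 3 lower, where 3.92% of all genes were higher and 7.88% lower. Over all times 7 were higher in KO, where 6.81% of all genes were, among them Fosl2 (0.54 ± 0.08) and Jund (0.70 ± 0.13).

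The genes whose level followed a member most closely were sought for the 3 members with the most counts, by Pearson correlation of log2(CPM + 1) over the 8 libraries among 11106 genes. Nearest to Plau were Nfkbiz, an atypical NF-kB regulator gene (r = 0.978), Prkab2 (0.971) and the growth factor gene Fgf7 (0.964). Nfkbiz had 1006, 862, 544 and 501 counts in KO and 793, 1507, 1510 and 1203 in WT, and like Plau was lowest in the late KO libraries. Nearest to Timp1 were Ube2e2 and Mob3c (both 0.968) and the kinase gene Stk17b (0.966). Nearest to Mmp14 were Vamp3 (0.970), Efnb1 (0.968) and Pfdn4 (0.967). These are the highest of many correlations over 8 points that share libraries and scaling, and they are given as a description.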

How the data were processed

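RNA bound to chromatin was depleted of ribosomal RNA and made into stranded single-end libraries, per the labels' protocols. The submitters' processing notes name cutadapt 1.12, STAR, featureCounts 1.5.0, DESeq2 and mm10. The authors deposited raw counts of reads per gene for 8 libraries, with coordinates and exon lengths, per the file headers. No source used here gives the strand setting, the handling of reads with several matches or the annotation release.

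Symbols were found by identifier for 98.77% of 45706 gene rows. A gene was tested if 2 or more libraries had 10 or more counts, which 15049 did. Scaling was by TMM, with factors between 0.818 and 1.21. The test was edgeR 4.0.16's quasi-likelihood F test (R 4.3.3), with Benjamini-Hochberg adjustment over every tested gene and a threshold of 0.05. The late comparisons came from 6 cell means (each genotype at 0 min, 15 min and late, with 45 and 60 min pooled), and KO against WT over all times had time as a block. CPM and CPM per kb were computed here from the TMM-scaled sizes. Each SE is the log2 fold change over the root of its F statistic. Single-library ratios have exact Clopper-Pearson intervals at 95%. These and the 3-count floor cover counting error only, since PCR copies are not independent molecules. In the late comparisons, p-values rest on the spread between the 45 and 60 min libraries of a genotype, so a real change between these times counts as noise. Over all times, they rest on how much the genotype difference varies between times, which is large for a gene whose genotypes cross over. Neither is a spread between replicates, and both may hold technical differences.

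The genes and the lists beside them were chosen with earlier results of these data known. From each other list, at most the 4 called genes with the smallest p per comparison are named, with every gene of the chromosome 9 cluster by position, and the 3 genes nearest to each of the 3 most counted members. For 1 gene of the lists, left out of their counts, no result is reported here. Simulated counts with known changes were used to test each fit. Alternatives were DESeq2 1.42.0, RLE scaling, total counts, no filter, the 15 min baseline, no time block, no 0 min libraries and leaving out each library, with total counts without the 3 most abundant genes added after the data were seen. Figures were drawn with matplotlib 3.10.9.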

Additional observations from a re-analysis of the deposited data

How the results depend on the processing

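No paired analysis was possible because the labels give no replicate numbers; the block in KO against WT over all times is the time itself. Of the alternative values for the members, 394 kept their direction and side of the threshold, 32 became calls, 13 lost a call and 23 changed sign. Some of those that kept both leave out a library that hardly enters the comparison, and are no check on it. Total counts moved the median of all genes by -0.21 after TNF in KO and in WT, and by -0.16 between genotypes late. The depth limits Mmp10, which could not be tested, and the late values of Mmp3, Mmp9 and Mmp13, which rest on few counts. Where no cause is named for a moved value, the cause was not tested.

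Members called lower between genotypes late were 2 with DESeq2 and 2 with no filter, where Mmp3 (edgeR adjusted p = 0.0798), Mmp13 (0.0858) and Timp1 (0.118) missed the threshold with the same fold changes. After TNF in KO, 2 members were called lower with total counts and 1, Mmp13, with total counts without the 3 most abundant genes. After TNF in WT, 3 were called higher against 15 min. The difference between changes gave 2 lower with total counts. KO against WT over all times gave 2 lower with total counts, 3 with no filter and 2 without both 0 min libraries. The last is in effect the same analysis as leaving out either 0 min library.

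Signs turned between genotypes late for Plaur with total counts (-0.13). Over all times they turned for Mmp14 with total counts (-0.12) and for Plaur without the 3 most abundant genes (0.00). Against 15 min they turned for Mmp3 in KO (-0.41), for Plau (-0.02) and Plaur (-0.08) in WT, and for the difference in Plaur (0.36). With 1 library left out, values over all times ran on both sides of 0 for Mmp14 (-0.07 to 0.13), Plaur (-0.07 to 0.07), Mmp13 (-0.63 to 0.36) and Timp1 (-0.31 to 0.23), as did Plaur late between genotypes (-0.11 to 0.23) and in the difference (-0.23 to 0.11). None of the values that turned was a call.

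Over all genes, the calls higher and lower were 198 and 78 after TNF in KO, 628 and 197 in WT, 1 and 74 for the difference, 590 and 1186 between genotypes late and 1025 and 1421 over all times. DESeq2 gave 16 lower in KO, 379 higher and 47 lower in WT, 0 higher for the difference, 226 higher and 684 lower late, and 574 higher over all times. Total counts gave 57 higher and 155 lower in KO, 304 higher in WT, 2 higher for the difference, 216 higher late, and 477 higher and 2898 lower over all times. Total counts without the 3 most abundant genes gave 180 lower in KO, 380 lower in WT and 3 higher for the difference. No filter gave 8 higher and 9 lower in KO, 248 higher and 30 lower in WT, 0 higher and 14 lower for the difference, and 281 higher and 781 lower late. The 15 min baseline gave 72 higher in KO, 130 lower in WT, and 0 higher and 19 lower for the difference. Without the time block 360 were higher and 708 lower over all times.

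With each library left out in turn, all-gene calls ran over 109 to 473 higher and 29 to 333 lower in KO, 588 to 702 higher and 192 to 284 lower in WT, 0 to 12 higher and 48 to 164 lower for the difference, 402 to 593 higher and 866 to 1197 lower late, and 417 to 977 higher and 746 to 1465 lower over all times. Members called, Mmp3 included, were 0 to 3 lower in KO, 1 to 3 higher in WT, 0 to 3 lower for the difference, 2 to 5 lower late and 0 to 2 lower over all times. Leaving out a genotype's 0 min library gives no change after TNF for it. A lone late library was taken to vary like the other groups.

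With total counts, the 15 min ratios to 0 min were -0.27 in KO and -0.76 in WT for Mmp14, -0.05 in KO and -0.31 in WT for Timp1, and 0.11 in KO and 0.74 in WT for Plau, and KO over WT at 0 min was -0.22 for Mmp14.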
